A study of Mus musculus with 7 samples.

Results

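The genes that encode integrins and laminins were followed in skin papillomas from mice with and without overexpression of *Nanog*. Members were found in the expression files by the symbols of integrin alpha (*Itga*), integrin beta (*Itgb*) and laminin (*Lama*, *Lamb* or *Lamc*) genes. Of 23284 symbols, 36 such genes are described here, of which 18 encode integrin alpha chains, 8 integrin beta chains and 10 laminin chains. Papillomas from 4 control (CTR) and 3 transgenic (TG) C57BL/6 mice, age-matched at the start, were sequenced, each from a different mouse. Every mouse carried *Nanog* under a doxycycline-responsive element (*tetO-Nanog*) at the *Col1a1* locus, and every mouse drank doxycycline at 2 mg/ml during the whole of the skin carcinogenesis protocol, in which DMBA mutates the epidermis and repeated TPA drives tumor growth. TG mice also carried *K5-rtTA*, a transactivator under the keratin 5 promoter, so that the transgene could be turned on only in cells that use this promoter. Some mice may have reached a humane endpoint before the protocol ended, and the labels do not say which. PolyA+ RNA was sequenced and the values are FPKM, the fragments of a gene scaled to transcript length and to the mapped fragments of the library, so that levels of different genes can be compared.

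Integrins are receptors made of an alpha and a beta chain that span the cell membrane and tie the cytoskeleton to the matrix outside the cell or to ligands on other cells. Laminins are trimers of an alpha, a beta and a gamma chain and form the sheet of the basement membrane. In the epidermis the basal keratinocytes sit on a laminin that holds the *Lama3* and *Lamb3* chains and that they grip through the integrin pair of *Itga6* and *Itgb4* in hemidesmosomes and through the pair of *Itga3* and *Itgb1*, while leukocytes, muscle, vessels and platelets use chains of their own.

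The transgene was read first. *Nanog* stood at 2.70, 2.84, 12.7 and 3.34 FPKM in CTR 1 to CTR 4 and at 36.9, 57.4 and 66.9 FPKM in TG 1 to TG 3, so the groups did not overlap. The library of TG 3 stood apart from the others. Its summed level of 7 skeletal muscle markers was 653 FPKM against 1.50 to 5.10 FPKM in the other 6 papillomas, that of 6 fibroblast markers was 678 FPKM against 73.5 to 129 FPKM, and that of 5 leukocyte markers was 82.4 FPKM against 13.2 to 26.7 FPKM. The keratinocyte markers (8 genes) summed to between 15638 and 18887 FPKM in CTR and to 24195, 20849 and 11246 FPKM in TG 1, TG 2 and TG 3. These markers did not move together in TG 3. *Krt14*, *Krtdap*, *Krt1* and *Krt10* were lowest there of all papillomas. *Krt5* (1783 FPKM) and *Dsg3* (257 FPKM) were highest there, and *Trp63* and *Perp* lay inside the CTR range. In RNA from whole papillomas, fewer cells of a type and less RNA per cell cannot be told apart. The files give no read numbers, and the width of their intervals implied between 10074859 and 15710562 reads per library.

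Of the 36 genes, 26 averaged 0.5 FPKM or more across all 7 papillomas and entered the comparison of TG with CTR, which was fitted with limma over 12299 genes on log2(FPKM + 0.5). The other 10 were *Itga4*, *Itga8*, *Itga9*, *Itga10*, *Itgad*, *Itgb3*, *Itgb8*, *Lama1*, *Lama2* and *Lamc3*. Of the 26, 22 would have entered on their CTR mean alone, and *Itga11*, *Itgae*, *Itgal* and *Itgb7* entered only through their TG values. At an adjusted p under 0.05, limma called 0 of the 26 genes, as it called 0.0% of all tested genes in either direction. *Nanog* itself, with a log2 difference of 3.45 and no overlap of the groups, had an adjusted p of 0.400 in limma. The fit thus did not call the overexpressed gene either, and 0 calls do not show that the members were unchanged. At an unadjusted p under 0.05, 6 of the 26 were higher in TG, against 4.86% of all tested genes (598), and 0 were lower, against 1.96% (241). The 6 were *Itga2*, *Itgb7*, *Itgb6*, *Lama3*, *Itga5* and *Lamb3*, and their adjusted p-values in limma lay between 0.607 and 0.720. Of these, 4 belong to the 8 epithelial chains, and the median log2 difference of that group was 0.53, against 0.06 over all tested genes. Without TG 3 this median was 0.32 (-0.03 over all tested genes), 5 of the 8 were above 0 instead of 8, and 1 (*Itga2*) had an unadjusted p under 0.05. The count of 6 fell to 2 without TG 3 (*Itga2* and *Itgb7*, against 5.2% of all tested genes), to 2 without CTR 1 or without CTR 3 (*Itga2* and *Itgb7* both times, against 3.28% and 2.96% of all tested genes) and to 3 without CTR 2, against 3.48%. In the papillomas of lower depth (without CTR 3 and TG 1) it was 4, against 3.68% of all tested genes, with 0 lower, against 1.41%. At an adjusted p under 0.05, 0 of the 26 were called in these subsets too, where limma called 0.00813% of all tested genes (1 gene) in a direction at most. Under upper-quartile scaling the count was 4, while all genes split into 495 higher and 439 lower. Under quantile normalization it was 4, with 403 higher and 551 lower. The 4 were *Itga2*, *Itgb6*, *Itgb7* and *Lama3* both times, without *Itga5* and *Lamb3*.

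The 26 genes had a median log2 difference of 0.56, with 24 of them above 0, against 60.0% of all tested genes. The 24 include *Itga11*, *Itgae*, *Itgal* and *Itgb7*, which entered only through their TG values. A mean FPKM higher in TG was thus fixed in advance for these. By the same rule 22 of the 26 would have entered on CTR alone, and so would 11872 of the 12299 tested genes. TG 3 held the top value for 23 of the 26, against 41.1% of all tested genes. Without TG 3 the median was 0.0923 (-0.03 over all tested genes) and 15 of the 26 were above 0, against 46.1%. Among the CTR papillomas, CTR 4 held the highest value for 20 of the 26, against 25.7% of all tested genes. CTR 4 and TG 3 thus held the top values of their groups for most members.

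**Figure D1:**
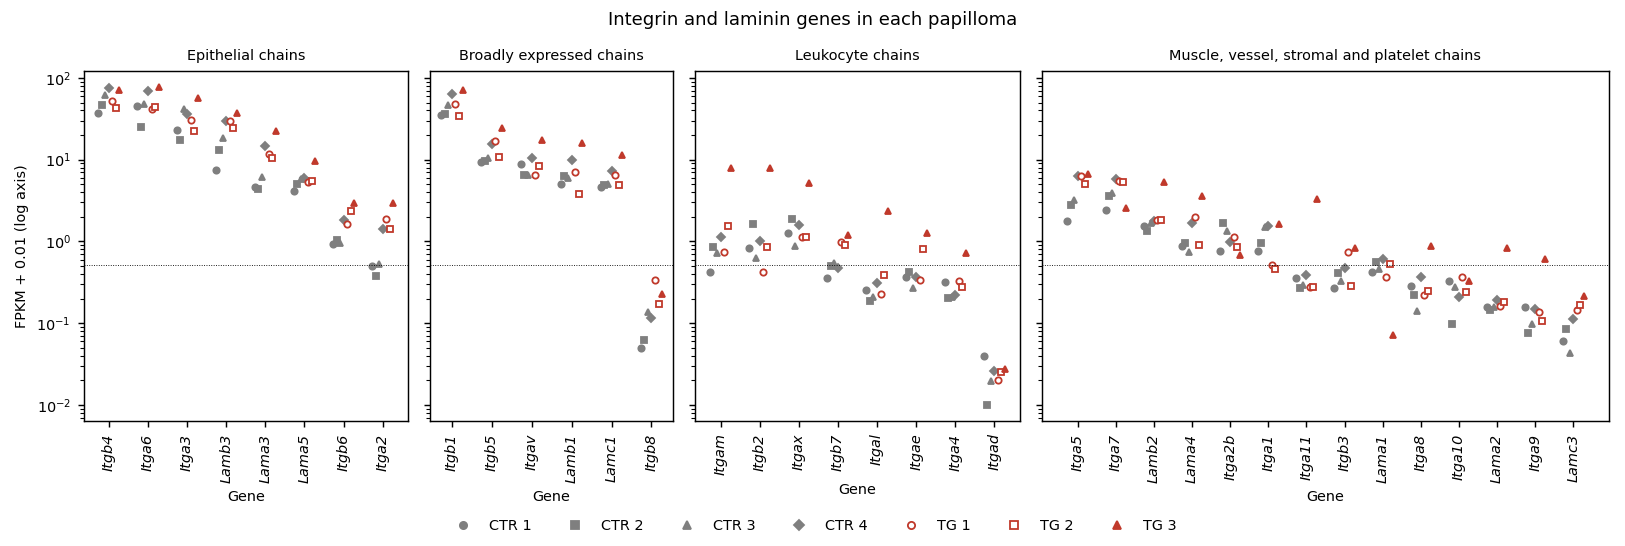
FPKM plus 0.01 (log axis) of the 36 integrin and laminin genes in each of the 7 papillomas, in 4 panels by the cells in which each chain is best known. Grey marks are CTR papillomas, open red marks TG 1 and TG 2, filled red triangles TG 3, and the dotted line marks a mean of 0.5 FPKM, below which a gene was not tested. TG 3 stands at the top for 23 of the 26 tested genes, and by far for leukocyte chains such as *Itgam* (7.92 FPKM) and *Itgb2* (7.92 FPKM).

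**Figure D2:**
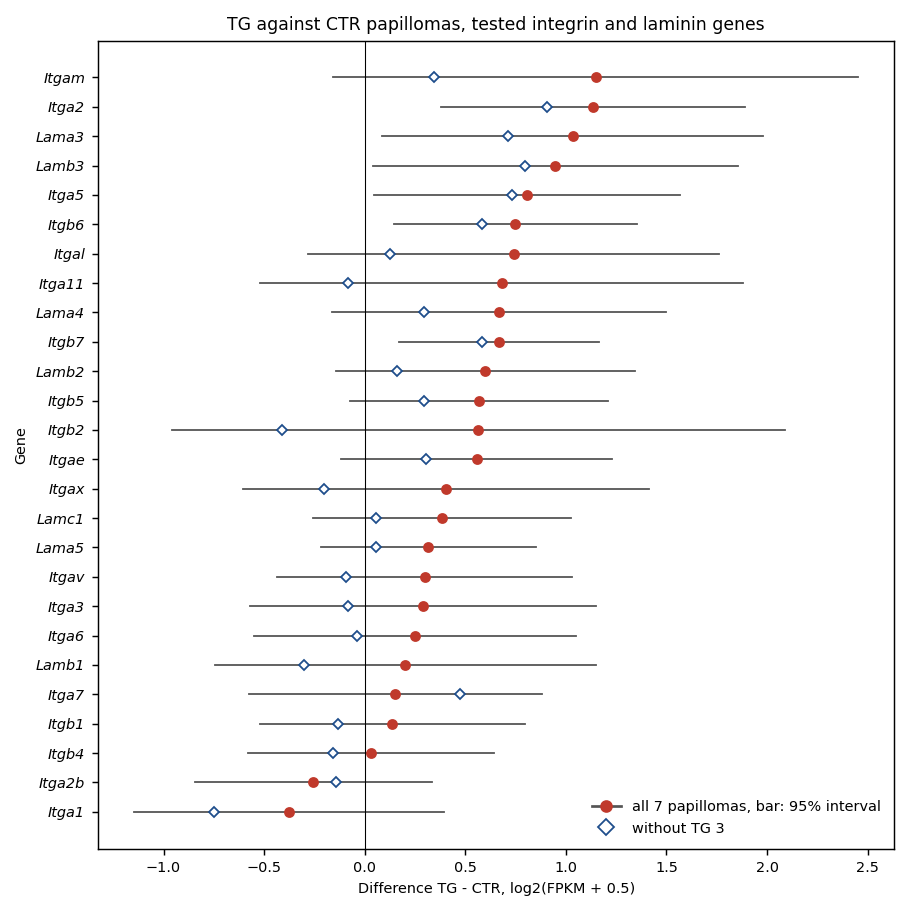
Difference between TG and CTR papillomas in log2(FPKM + 0.5) for the 26 tested genes, with bars for the 95% interval from limma (red circles, all 7 papillomas) and the same difference without TG 3 (open blue diamonds). *Itgam* (1.15), *Itga2* (1.13) and *Lama3* (1.03) lie highest, and the diamond of *Itgam* drops to 0.34 while those of *Itga2* and *Lama3* are at 0.90 and 0.71.

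*Lama3* and *Lamb3*, chains of the epidermal laminin, were higher in TG at an unadjusted p under 0.05 and passed no adjusted threshold. *Lama3*, its alpha chain, had 4.60, 4.38, 6.17 and 14.8 FPKM in CTR 1 to CTR 4 and 11.7, 10.6 and 22.1 FPKM in TG 1 to TG 3. The log2 difference was 1.03 ± 0.42 (SE from limma, as for every log2 difference below), with an unadjusted p of 0.0358 and an adjusted p of 0.709 in limma. *Lamb3*, its beta chain, had 7.39, 13.2, 18.3 and 29.9 FPKM in CTR and 29.3, 24.7 and 36.9 FPKM in TG, a log2 difference of 0.95 ± 0.40 (limma, unadjusted p = 0.0424, adjusted p = 0.720). For both genes CTR 4 lay between TG 1 and TG 3 and the other CTR papillomas lay below the TG range. Without TG 3 the log2 differences of *Lama3* and *Lamb3* were 0.71 and 0.80, with unadjusted p-values in limma of 0.136 and 0.118.

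The ratio of *Lamb3* to *Lama3* was 1.61, 3.01, 2.96 and 2.02 in CTR and 2.51, 2.33 and 1.67 in TG, so that the TG papillomas lay inside the CTR range. The ratio of *Lamb3* to *Krt5*, a keratin of basal keratinocytes, was 0.00785, 0.00777, 0.0112 and 0.0173 in CTR and 0.0165, 0.0216 and 0.0207 in TG. These ratios, like others below, were chosen after values had been seen and are a description. Relative to this keratin CTR 4 lay between TG 1 and the other TG papillomas, CTR 1 to CTR 3 lay below, and TG 3 did not stand out from TG 2. For *Lama3* the ratio to *Krt5* was 0.00489, 0.00258, 0.00379 and 0.00854 in CTR and 0.00659, 0.00927 and 0.0124 in TG, again with CTR 4 between TG 1 and the other TG papillomas. Relative to *Krt14*, the partner of *Krt5*, TG 3 did stand apart. *Lamb3* over *Krt14* was 0.00135, 0.00190, 0.00244 and 0.00380 in CTR and 0.00268, 0.00327 and 0.00783 in TG, with CTR 4 above TG 1 and TG 2. The difference in mean log2 ratio to *Krt14* was 0.89 for *Lamb3* and 1.01 for *Lama3*, and without TG 3 it was 0.42 and 0.37. *Krt5* itself ranged from 942 to 1730 FPKM in CTR and was 1777, 1144 and 1783 FPKM in TG.

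*Lamb3* is shown because, of the pair, it has a RefSeq promoter window. The 250 bases before its annotated start (GRCm38.p6, chr1:193301744-193301993, plus strand, 5′ to 3′) follow, with a match to the PU.1 box GAGGAAG in capitals. A second RefSeq window of *Lamb3* (chr1:193301993-193302242, plus strand) holds no match to the motifs searched and is not shown.

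Lamb3: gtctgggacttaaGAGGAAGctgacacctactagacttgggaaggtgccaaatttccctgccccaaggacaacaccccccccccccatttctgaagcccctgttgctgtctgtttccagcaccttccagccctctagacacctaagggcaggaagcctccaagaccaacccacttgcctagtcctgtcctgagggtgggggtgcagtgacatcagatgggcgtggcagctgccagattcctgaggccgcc

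RefSeq windows were at hand for 23 of the 36 genes (26 windows), and each was searched on both strands for 4 motifs. The AP-1 site TGANTCA was in 1 of the 26 (*Itgax*) and in 6.7% of all 32851 promoter windows. The GC box GGGCGG was in 9 of 26 (32.7% of all), the PU.1 box in 7 of 26 (10.6% of all), and TAATGG, a core bound by NANOG, in 1 of 26 (*Itgb5*, 6.6% of all). The motifs do not overlap in their letters, and a match describes these letters and not binding.

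Of the laminin chains of wider use, *Lamc1*, a gamma chain of many basement membranes, stood between 4.66 and 7.18 FPKM in CTR and at 6.41, 4.89 and 11.5 FPKM in TG (log2 difference 0.38 ± 0.28, and 0.0580 without TG 3). *Lamb1*, a beta chain often found with it, had 4.96, 6.22, 5.99 and 9.95 FPKM in CTR and 7.14, 3.79 and 15.9 FPKM in TG, with the lowest and the highest of the 7 values both in TG. *Lama5*, the alpha chain that basal keratinocytes also lay down, was between 4.10 and 5.89 FPKM in CTR and at 5.27, 5.52 and 9.62 FPKM in TG. Its log2 difference was 0.32 ± 0.24, and 0.06 without TG 3.

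*Lama3* outweighed *Lama5* in every TG papilloma, with ratios of 2.22, 1.92 and 2.30, and in CTR the ratio was 1.12, 0.862, 1.07 and 2.51. As shares of laminin alpha FPKM, *Lama3* made up 60.1, 59.9 and 61.2% in TG and 45.4, 39.4, 46.4 and 63.9% in CTR. The TG papillomas lay close together on this measure (SD 0.684), and CTR 4 was above them. Among the laminin beta chains, *Lamb3* made up 76.6, 81.5 and 63.6% in TG and 53.2, 63.6, 70.5 and 71.9% in CTR, and TG 3 lay within the CTR range on this measure.

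Of the chains better known from muscle, vessels and stroma, *Lamb2*, which replaces *Lamb1* in synapses and vessel walls, separated the groups: 1.55, 1.32, 1.68 and 1.75 FPKM in CTR and 1.80, 1.82 and 5.26 FPKM in TG. Such complete separation in this direction held for 2 of the 26 genes (with *Itgb7*), against 4.93% of all tested genes, and TG 1 and TG 2 were close to CTR 4. The log2 difference of *Lamb2* was 0.60 ± 0.33, and 0.16 without TG 3. *Lama4*, an alpha chain of vessel walls, had 0.867, 0.959, 0.742 and 1.67 FPKM in CTR and 1.99, 0.901 and 3.55 FPKM in TG. TG 1 and TG 3 lay above CTR and TG 2 within it. The summed level of 6 endothelial markers, none of them at 0, had the same pattern. It was 8.35 to 14.3 FPKM in CTR and 21.4, 11.7 and 28.9 FPKM in TG 1 to TG 3. The markers differed in TG 2. There *Pecam1* (4.30 FPKM) and *Tek* (0.395 FPKM) were above every CTR value, and *Cdh5*, *Kdr*, *Tie1* and *Emcn* lay inside the CTR range. The part of endothelial cells in the values of *Lama4* was not tested.

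The alpha chains below the expression threshold went in opposite ways in TG 3. *Lama2*, the alpha chain around muscle fibers, stood at 0.828 FPKM in TG 3 and between 0.136 and 0.184 FPKM in the other 6 papillomas, while *Lama1*, known from early embryonic basement membranes, stood at 0.0622 FPKM in TG 3 and between 0.362 and 0.597 FPKM elsewhere. *Lamc3* was above 0 in all 7, on 5 to 20 implied reads. Its values were 0.134, 0.159 and 0.202 FPKM in TG and 0.0337 to 0.102 FPKM in CTR. Every TG value was above every CTR value, which held for 5.0% of all 19124 genes with a value above 0.

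**Figure D3:**
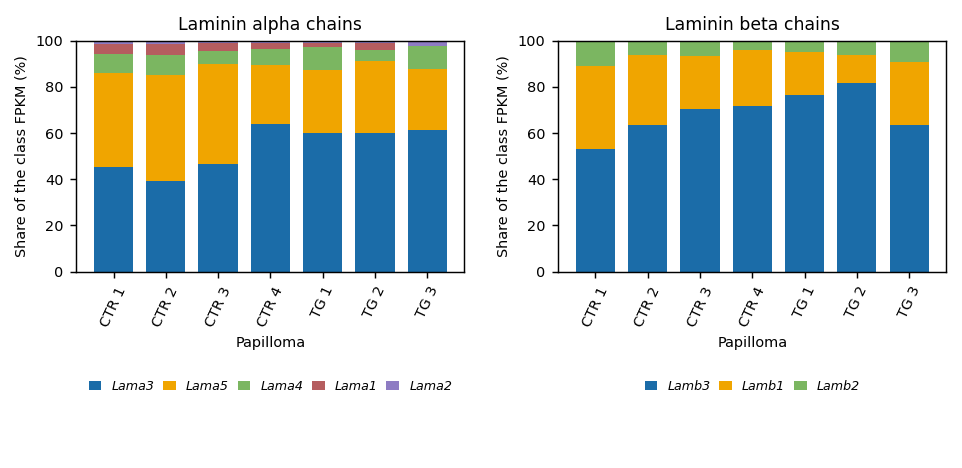
Stacked shares (%) of laminin alpha (left) and laminin beta (right) FPKM by chain in each of the 7 papillomas. *Lama3* makes up 59.9 to 61.2% of the alpha FPKM in TG and 39.4 to 63.9% in CTR, and *Lamb3* makes up 63.6 to 81.5% of the beta FPKM in TG and 53.2 to 71.9% in CTR.

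The integrin chains that bind the epidermal laminin were not past an unadjusted p of 0.05. *Itgb4*, the beta chain particular to hemidesmosomes, stood at 37.5, 46.6, 61.6 and 75.4 FPKM in CTR and at 52.9, 43.3 and 70.9 FPKM in TG. The TG values lay inside the CTR range, and the log2 difference was 0.03, with a 95% interval from -0.58 to 0.64. Its sign turned under upper-quartile scaling (-0.05). *Itga6*, its partner, had 44.8, 24.7, 47.9 and 69.8 FPKM in CTR and 42.1, 43.5 and 78.3 FPKM in TG (0.25 ± 0.35). *Itga3* had 22.8, 17.4, 41.4 and 36.0 FPKM in CTR and 30.8, 22.3 and 57.5 FPKM in TG (0.29 ± 0.38). *Itgb1*, the beta chain that pairs with most alpha chains, had 35.5, 35.8, 46.9 and 63.8 FPKM in CTR and 47.5, 34.2 and 70.7 FPKM in TG (0.14 ± 0.29). Without TG 3 the log2 differences of *Itgb4*, *Itga6*, *Itga3* and *Itgb1* were -0.16, -0.04, -0.08 and -0.13, and with this spread a difference inside the interval of *Itgb4* could not be told from 0.

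These 4 were the most abundant integrin genes, and together they made up 82.2, 79.0, 85.7 and 82.9% of all integrin FPKM in CTR and 78.9, 77.4 and 75.2% in TG. Every TG share was below every CTR share, with TG 1 and CTR 2 nearly level. How often such a share separates the groups for other genes was not counted. The ratio of *Lamb3* to *Itgb4* was 0.197, 0.283, 0.297 and 0.397 in CTR and 0.554, 0.571 and 0.521 in TG, and that of *Lama3* to *Itgb4* was between 0.0939 and 0.196 in CTR and 0.221, 0.245 and 0.312 in TG. On both ratios to *Itgb4* the groups did not overlap, and TG was the higher. Relative to *Itga6*, its partner, *Lama3* was at 0.103 to 0.212 in CTR and at 0.278, 0.244 and 0.282 in TG, again without overlap, while *Lamb3* was at 0.165, 0.533, 0.382 and 0.429 in CTR and at 0.696, 0.568 and 0.471 in TG, so that TG 3 lay below CTR 2. A ratio within a library does not depend on how libraries are scaled to each other. The ratios were chosen after values had been seen, and how often a ratio of 2 genes separates the groups was not counted, so they are a description.

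**Figure D4:**
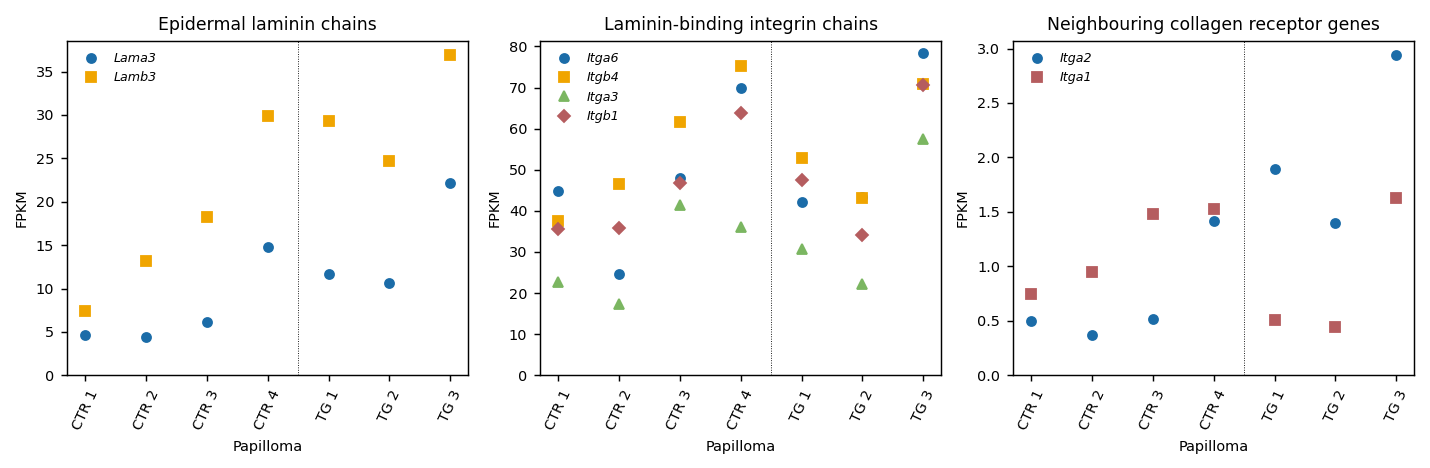
FPKM in each papilloma of *Lama3* and *Lamb3* (left), of laminin-binding integrin chains (middle) and of the neighbouring collagen receptor genes *Itga2* and *Itga1* (right), with CTR to the left of the dotted line. *Lama3* and *Lamb3* are lowest in CTR 1 to CTR 3, *Itgb4* in TG (43.3 to 70.9 FPKM) lies inside the CTR range, and *Itga2* is above *Itga1* in the 3 TG papillomas only.

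Among the receptors for collagen, the alpha chains *Itga2* and *Itga1* are encoded by neighbouring genes. *Itga2*, which keratinocytes use to bind collagen, stood at 0.494, 0.369, 0.518 and 1.42 FPKM in CTR and at 1.89, 1.40 and 2.94 FPKM in TG, on 32 to 201 implied reads. CTR 4 was level with TG 2, and the other CTR papillomas lay below. The log2 difference was 1.13 ± 0.33 (limma, unadjusted p = 0.00796, adjusted p = 0.607), and without TG 3 it was 0.90 (unadjusted p = 0.0229 in limma). Its unadjusted p stayed under 0.05 in 16 of the 17 alternatives in which it was fitted, and its adjusted p was never under 0.276. For the rest of the 6 the unadjusted p held less often. It did so in 15 of 17 for *Itgb7*, 13 of 17 for *Itgb6*, 11 of 18 for *Lama3*, and 7 of 18 for *Itga5* and for *Lamb3*. *Itga1*, which stromal and vessel cells use for collagen of basement membranes, stood at 0.743, 0.950, 1.48 and 1.53 FPKM in CTR and at 0.506, 0.445 and 1.62 FPKM in TG. TG 1 and TG 2 were the lowest of the 7 and TG 3 the highest. Its log2 difference was -0.38 ± 0.34, and -0.75 without TG 3 (unadjusted p = 0.0158, adjusted p = 0.344 in limma), where it was the only member lower at an unadjusted p under 0.05, against 4.38% of all tested genes.

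The ratio of *Itga2* to *Itga1* was 0.665, 0.388, 0.351 and 0.928 in CTR and 3.74, 3.14 and 1.81 in TG. It was below 1 in every CTR papilloma and above 1 in every TG papilloma, and the groups differed by 2.36 in mean log2 ratio and by 2.67 without TG 3. How often a ratio of 2 genes separates the groups was not counted, so this too is a description. The genes lie on chromosome 13, on the minus strand in the annotation, 26039 bases apart with no gene between them. The locus of *Itga1* also holds *Pelo* (1804 shared bases), a ribosome rescue factor, at 9.64 to 12.3 FPKM in CTR and 8.76 to 12.8 FPKM in TG. The libraries were stranded, but the strand setting of the abundance step is not given in the sources used here, so reads of such overlapping genes may be split uncertainly. The promoter windows of the pair are shown because the ratio of their transcripts separated the groups (GRCm38.p6, chr13:114932101-114932350 for *Itga2* and chr13:115101965-115102214 for *Itga1*, both minus strand, 5′ to 3′). Neither holds a match to the 4 motifs, so no letters are in capitals.

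Itga2: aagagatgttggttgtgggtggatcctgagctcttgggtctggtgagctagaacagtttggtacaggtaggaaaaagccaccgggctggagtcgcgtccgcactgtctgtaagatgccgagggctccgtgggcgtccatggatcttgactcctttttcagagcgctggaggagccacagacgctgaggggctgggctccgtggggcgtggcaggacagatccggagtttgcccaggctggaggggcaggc

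Itga1: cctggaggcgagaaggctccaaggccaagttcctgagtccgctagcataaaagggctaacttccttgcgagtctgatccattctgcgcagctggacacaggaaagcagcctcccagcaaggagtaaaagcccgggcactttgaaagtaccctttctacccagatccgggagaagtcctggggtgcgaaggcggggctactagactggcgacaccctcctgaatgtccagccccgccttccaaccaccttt

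Of the other collagen receptor chains, *Itga11*, known from fibroblasts, stood at 3.27 FPKM in TG 3 and between 0.257 and 0.381 FPKM in the other 6 papillomas. Its log2 difference of 0.68 ± 0.53 turned to -0.08 without TG 3, whose fibroblast markers were also the highest. The part of those cells in this value was not tested. *Itga10*, known from cartilage, was between 0.0881 and 0.362 FPKM throughout.

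The chains that bind fibronectin and other ligands with an arginine-glycine-aspartate motif, several of which activate latent TGF-beta, include *Itga5*, *Itgav*, *Itgb1*, *Itgb3*, *Itgb5*, *Itgb6* and *Itgb8*. Of these, *Itga5* and *Itgb6* were higher in TG at an unadjusted p under 0.05, and neither passed it without TG 3. *Itga5*, the alpha chain of the main fibronectin receptor, had 1.75, 2.77, 3.16 and 6.28 FPKM in CTR and 6.21, 5.05 and 6.64 FPKM in TG, a log2 difference of 0.81 ± 0.34 (limma, unadjusted p = 0.0400, adjusted p = 0.719). CTR 4 was within the TG range, the other CTR papillomas were below it, and TG 3 was close to TG 1. Without TG 3 the log2 difference was 0.73 (unadjusted p = 0.0968 in limma). *Itgb6*, the epithelial beta chain that pairs with *Itgav* and is known to be induced in wounds and carcinomas, had 0.907, 1.02, 0.950 and 1.84 FPKM in CTR and 1.60, 2.38 and 2.98 FPKM in TG. CTR 4 lay above TG 1, and the log2 difference was 0.75 ± 0.27 (limma, unadjusted p = 0.0208, adjusted p = 0.687), or 0.58 without TG 3 (unadjusted p = 0.0592 in limma).

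*Itgb5*, another partner of *Itgav*, had 9.24, 9.68, 10.5 and 15.5 FPKM in CTR and 17.0, 10.9 and 24.3 FPKM in TG (0.57 ± 0.28, and 0.30 without TG 3), with CTR 4 above TG 2. *Itgb8*, a partner that keratinocytes use to activate TGF-beta, was below the expression threshold and rested on 2 to 24 implied reads. It stood at 0.0396, 0.0521, 0.126 and 0.104 FPKM in CTR and at 0.330, 0.161 and 0.220 FPKM in TG. Every TG value was above every CTR value, which held for 5.0% of all 19124 genes with a value above 0, but the Cufflinks intervals of CTR 3 (0.0420 to 0.210 FPKM) and TG 2 (0.0473 to 0.275 FPKM) overlapped widely. *Itgav* itself, the alpha chain that these beta chains share, had 8.95, 6.43, 6.53 and 10.4 FPKM in CTR and 6.50, 8.40 and 17.3 FPKM in TG (0.30 ± 0.32, and -0.09 without TG 3).

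As shares of integrin beta FPKM, which do not depend on scaling, *Itgb5* made up 10.9, 10.1, 8.65 and 9.78% in CTR and 14.0, 11.7 and 13.6% in TG. *Itgb6* made up 0.782 to 1.16% in CTR and 1.32, 2.56 and 1.66% in TG. For these 2, as for *Itgb7* and *Itgb8*, every TG share was above every CTR share, CTR 4 included. In FPKM the groups overlapped for *Itgb5* and *Itgb6*. *Itgb7* entered the comparison only through its TG values, and *Itgb8* rested on 2 to 24 implied reads. How often such shares separate the groups for other genes was not counted, so these shares are a description. The share of *Itgb4* was 47.8% ± 2.67 (SD, n = 4) in CTR and 43.2% ± 3.51 (SD, n = 3) in TG, and that of *Itgb1* was 39.6% ± 1.99 and 38.5% ± 1.46. Shares of 1 total are tied to each other, so a higher share of some chains goes with a lower share of others.

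*Itgb3*, the beta chain of activated endothelium and platelets, had 0.256, 0.405, 0.320 and 0.457 FPKM in CTR and 0.728, 0.275 and 0.820 FPKM in TG. TG 1 and TG 3 were above CTR, as for *Lama4* and the sum of the endothelial markers. *Itga8*, a chain of smooth muscle and mesenchyme, and *Itga9*, known from lymphatic vessels and keratinocytes, were highest in TG 3 (0.866 and 0.600 FPKM) and at most 0.352 and 0.150 FPKM elsewhere.

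Most leukocyte chains were highest in TG 3, and for *Itgam* and *Itgal* TG 2 also lay above every CTR value. *Itgam*, the alpha chain of myeloid cells, had 0.410, 0.849, 0.707 and 1.12 FPKM in CTR and 0.727, 1.53 and 7.92 FPKM in TG. *Itgb2*, the beta chain common to leukocyte integrins, had 0.823, 1.62, 0.610 and 0.995 FPKM in CTR and 0.412, 0.835 and 7.92 FPKM in TG, so that TG 1 was the lowest of the 7 and TG 3 the highest. *Itgax*, the alpha chain of dendritic cells and macrophages, had between 0.880 and 1.87 FPKM in CTR and 1.11, 1.13 and 5.21 FPKM in TG. *Itgal*, the alpha chain of lymphocytes, had between 0.178 and 0.298 FPKM in CTR and 0.219, 0.377 and 2.34 FPKM in TG. The log2 differences of *Itgam*, *Itgb2*, *Itgax* and *Itgal* were 1.15 ± 0.58, 0.56 ± 0.67, 0.40 ± 0.44 and 0.74 ± 0.45, and without TG 3 they were 0.34, -0.41, -0.20 and 0.13.

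Summed over the 8 leukocyte chains, the level was 3.78, 5.62, 3.39 and 5.04 FPKM in CTR and 4.09, 5.86 and 26.6 FPKM in TG. *Ptprc*, a phosphatase on all leukocytes, stood at 8.17 FPKM in TG 3 and between 0.766 and 1.46 FPKM in the others. The sum relative to *Ptprc* was 2.58 to 5.52 in CTR and 5.35, 4.04 and 3.25 in TG, so that TG 3 was inside the CTR range on this ratio. *Ptprc* is 1 of the 5 leukocyte markers, and ratios to the rest were not taken, so this holds for *Ptprc* alone. All 5 leukocyte markers were highest in TG 3, and none was at 0 in any papilloma. The T cell markers found (5 genes) summed to between 0.977 and 2.33 FPKM in CTR and to 1.29, 2.15 and 2.47 FPKM in TG. Neutrophil markers (5 genes) summed to 608 to 1812 FPKM in CTR and to 3374, 4229 and 1677 FPKM in TG. Nearly all of each sum came from *S100a8* (1846, 2257 and 752 FPKM in TG) and *S100a9* (1510, 1955 and 887 FPKM in TG), so it mainly describes these genes. Of these only *Csf3r* was highest in TG 3. Macrophage and dendritic cell markers found (6 genes) summed to 43.9 to 66.0 FPKM in CTR and to 67.3, 74.6 and 166 FPKM in TG. Of these 5 were highest in TG 3, and *Cd68* lay inside the CTR range there.

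*Itgb7*, the beta chain of gut-homing and intraepithelial lymphocytes, was the only leukocyte chain without overlap between the groups. It had 0.344, 0.497, 0.531 and 0.467 FPKM in CTR and 0.974, 0.895 and 1.20 FPKM in TG, on 14 to 67 implied reads, and every TG value was above every CTR value. The log2 difference was 0.67 ± 0.22 (limma, unadjusted p = 0.0143, adjusted p = 0.674) and 0.58 without TG 3 (unadjusted p = 0.0106, adjusted p = 0.296 in limma). Its CTR mean of 0.460 FPKM was below the threshold for testing, so it was tested only because TG was high, and its p-values and its place in the counts of members are no independent support. The ratio of *Itgb7* to *Ptprc* was 0.235, 0.488, 0.677 and 0.332 in CTR and 1.27, 0.617 and 0.147 in TG, so that it was high in TG 1 and lowest in TG 3. Its partners did not share the pattern. *Itgae*, which with *Itgb7* binds E-cadherin on epithelial cells, had 0.257 to 0.417 FPKM in CTR and 0.331, 0.806 and 1.26 FPKM in TG, with TG 1 inside the CTR range. Its locus shares 2811 bases with *Gsg2*, a mitotic kinase gene at 1.37 to 2.73 FPKM. *Itga4*, the other partner, had 0.194 to 0.307 FPKM in CTR and 0.314, 0.267 and 0.704 FPKM in TG, and *Itgad*, a macrophage chain, had at most 2 implied reads.

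The promoter windows of *Itgb7* and *Itgam* are shown as those of the leukocyte chains with the differing patterns (GRCm38.p6, chr15:102231936-102232185, minus strand, and chr7:128062390-128062639, plus strand, 5′ to 3′). In capitals are a PU.1 box and a GC box (read on the opposite strand) in *Itgam*, and *Itgb7* has no match to the 4 motifs.

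Itgb7: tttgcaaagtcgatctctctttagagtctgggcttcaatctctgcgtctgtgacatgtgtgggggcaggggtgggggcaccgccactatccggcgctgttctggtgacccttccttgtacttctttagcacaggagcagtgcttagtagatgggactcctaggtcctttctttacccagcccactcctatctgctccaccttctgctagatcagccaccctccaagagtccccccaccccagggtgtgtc

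Itgam: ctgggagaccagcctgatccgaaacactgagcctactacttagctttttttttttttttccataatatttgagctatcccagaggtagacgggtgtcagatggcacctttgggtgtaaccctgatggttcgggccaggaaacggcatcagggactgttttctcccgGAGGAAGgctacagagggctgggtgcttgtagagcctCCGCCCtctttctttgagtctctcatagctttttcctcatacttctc

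**Figure D5:**
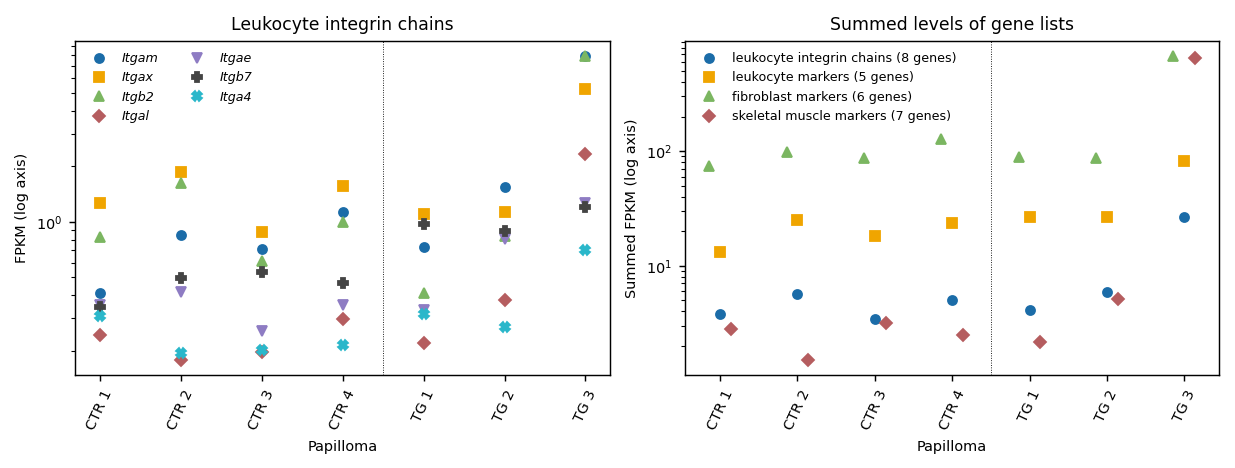
FPKM (log axis) of 7 leukocyte integrin chains in each papilloma (left, *Itgad* left out), and summed FPKM (log axis) of the 8 leukocyte chains beside leukocyte, fibroblast and skeletal muscle markers (right), with CTR to the left of the dotted line. The 4 sums are highest in TG 3, at 26.6 FPKM for leukocyte chains and 653 FPKM for skeletal muscle markers, and *Itgb7* is above all CTR papillomas in TG 1 and TG 2 too.

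*Itga7* and *Itga2b* are best known from muscle and platelets. *Itga7*, the alpha chain of the laminin receptor of skeletal muscle, had 2.39, 3.56, 3.89 and 5.74 FPKM in CTR and 5.50, 5.25 and 2.52 FPKM in TG. TG 3, with the highest skeletal muscle markers, had the second lowest *Itga7* of the 7. In the other 6 papillomas the marker *Mylpf* stood at 1.03 to 2.47 FPKM and *Acta1* at up to 1.41 FPKM. The rest of these markers were at most 0.590 FPKM there. The part of muscle cells in the values of *Itga7* was not tested. The log2 difference of *Itga7* was 0.15 ± 0.32 and 0.47 without TG 3. *Itga2b*, the alpha chain of the platelet fibrinogen receptor, had 0.745, 1.65, 1.34 and 0.969 FPKM in CTR and 1.14, 0.850 and 0.675 FPKM in TG (-0.26 ± 0.26, and -0.14 without TG 3). Of 5 platelet markers, *Gp6* was at 0 in every papilloma, *Gp9* was at most 0.0731 FPKM, and *Gp1ba* was between 0.0352 and 0.0679 FPKM in CTR and between 0.147 and 0.195 FPKM in TG. *Ppbp*, a platelet chemokine, was between 0.0907 and 13.4 FPKM in 6 papillomas and reached 558 FPKM in TG 3. *Pf4*, another platelet chemokine, had 0.704, 2.14, 1.86 and 2.15 FPKM in CTR and 2.09, 0.909 and 3.13 FPKM in TG. TG 3 thus had the highest *Ppbp* and *Pf4* and the lowest *Itga2b*, while among the other 6 papillomas CTR 1 and TG 2 were the lowest for both *Pf4* and *Itga2b*.

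The partners of these chains were read from lists of 70 genes, of which 59 were tested. At an unadjusted p under 0.05, 5 were higher and 1 lower in TG, against 4.86% and 1.96% of all tested genes, and 0 had an adjusted p under 0.05 in limma. Their median log2 difference was 0.33, and 0.04 without TG 3. *Ptk2*, the focal adhesion kinase that acts just downstream of integrins, was the gene lower in TG. It stood at 16.4, 16.3, 21.6 and 18.3 FPKM in CTR and at 9.59, 9.20 and 15.1 FPKM in TG, with every TG value below every CTR value, against 2.23% of all tested genes. The log2 difference was -0.69 ± 0.21 (limma, unadjusted p = 0.00951, adjusted p = 0.626), and -0.91 without TG 3. Of 25 activators and adaptors 23 were tested, and 20 of these had a log2 difference above 0, against 60.0% of all tested genes. *Ptk2* was the only one lower at an unadjusted p under 0.05. *Zyx*, a protein of focal adhesions under tension, was the only one higher at that p (9.87 to 15.7 FPKM in CTR, and 18.8, 14.1 and 29.2 FPKM in TG, 0.68 ± 0.26). The third of that list by p was *Fermt2*, a kindlin that activates integrins, at 0.79 ± 0.40. Without TG 3, 11 of the 23 were above 0, against 46.1% of all tested genes, *Ptk2* and the adaptor *Tns3* were lower at an unadjusted p under 0.05 (*Tns3* at -0.65, unadjusted p = 0.0293 in limma), against 4.38%, and 0 were higher, against 5.2%.

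In the basement membrane list (9 of 13 tested) all 9 log2 differences were above 0, against 60.0% of all tested genes, and 2 were higher at an unadjusted p under 0.05, against 4.86%. TG 3 held the top value for all 9, and without it 8 of the 9 were above 0 and 0 were higher at that p. The 2 were *Col7a1*, the collagen of the anchoring fibrils that bind the epidermal laminin to the dermis, and *Nid1*, which links laminin to collagen. *Col7a1* had 3.96, 7.92, 11.3 and 14.4 FPKM in CTR and 18.7, 11.9 and 23.1 FPKM in TG (0.98 ± 0.40, limma adjusted p = 0.713). *Nid1* had 1.15 to 2.77 FPKM in CTR and 2.84, 2.12 and 6.39 FPKM in TG (0.83 ± 0.36, limma adjusted p = 0.732). Next by p was *Col4a1*, a collagen of basement membranes, at 0.69 ± 0.31. Of the 4 hemidesmosome partners, *Col17a1*, the transmembrane collagen of hemidesmosomes, had 56.5, 76.8, 87.0 and 103 FPKM in CTR and 106, 102 and 154 FPKM in TG (0.59 ± 0.24, limma adjusted p = 0.719), with CTR 4 level with TG 1 and TG 2. The cytoskeletal linkers *Plec* and *Dst* of the same list were at 0.33 ± 0.21 and 0.43 ± 0.34. *Cd151*, the remaining gene of this list, was at -0.01 ± 0.31, and at -0.22 without TG 3.

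Of the matrix ligands (8 of 10 tested), *Tnc*, a matrix protein of wounds and tumor stroma, was higher at an unadjusted p under 0.05 (4.13 to 12.1 FPKM in CTR, and 19.8, 8.28 and 36.7 FPKM in TG, 1.28 ± 0.49). *Fn1*, fibronectin itself, and *Postn*, a stromal matrix protein, were at 0.97 ± 0.47 and 0.91 ± 0.46, and both fell short of that p. None of the 5 tested cell surface ligands, the 5 inhibitors and the 5 other laminin receptors was past it in either direction. *Icam1*, the ligand of leukocyte integrins, was at 0.80 ± 0.36, and *Sdc1*, a syndecan that binds laminin, was at 0.47 ± 0.21. Without TG 3 the log2 differences of *Col7a1*, *Nid1*, *Col17a1*, *Tnc* and *Zyx* were 0.77, 0.42, 0.40, 0.79 and 0.41, and none had an unadjusted p under 0.05 in limma. Those of *Fn1*, *Postn*, *Fermt2* and *Dst* were 0.41, 0.35, 0.31 and 0.0019, and those of *Plec*, *Col4a1*, *Icam1* and *Sdc1* were 0.21, 0.48, 0.54 and 0.32.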

How the data were processed

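Expression files of 4 CTR and 3 TG papillomas were used, 1 per mouse, with groups and replicate numbers from the labels. Reads were aligned by the authors with TopHat 2.0.4 (using Bowtie 0.12.7) to the mouse genome GRCm38. They estimated abundances in each papilloma by Cufflinks 1.3.0 and deposited FPKM values with intervals and a status. Symbols with more than 1 entry were summed (240) and 162 symbols with a failed estimate were left out, none a member. Depth was inferred from the intervals, which cover counting error only.

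Values were compared as log2(FPKM + 0.5), with 0.5 FPKM as the minimum mean, by limma 3.58.1 (R 4.3.3, trended variances, 2-sided, Benjamini-Hochberg over 12299 genes, tested on simulated data), in Python 3.11.15 with pandas 2.3.3, numpy 2.4.6 and matplotlib 3.10.9. Fold changes on this scale understate those of low genes. Named genes were all members, *Nanog* and, of each partner list, up to 3 with the smallest p. Beside these, *Cd151*, *Tns3* and markers of cell types were named. The chain groups follow textbook use. Members, lists and the 18 alternatives were chosen with earlier results of these data known. 1 further gene that the symbols match is not reported here and enters no count of members. Promoters are RefSeq's for GRCm38.p6.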

Additional observations from a re-analysis of the deposited data

Results flagged for a closer look

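4 genes had a CTR papilloma far from the other 3, by the gap to the nearest value over the range of the 4 (Dixon's ratio, above its 95% critical value), among 36 genes read in CTR. Chance alone flags about 1 in 20 groups. For *Itga2* the highest value, 1.42 FPKM in CTR 4 against 0.369 to 0.518 FPKM, gave 0.857. For *Itgb6*, 1.84 FPKM in CTR 4 against 0.907 to 1.02 FPKM gave 0.877. For *Lamc1*, 7.18 FPKM in CTR 4 against 4.66 to 4.98 FPKM gave 0.875. For *Itga4*, 0.307 FPKM in CTR 1 against 0.194 to 0.213 FPKM gave 0.832. Without CTR 4, 7 of the 26 tested members were higher in TG at an unadjusted p under 0.05 in limma (4.59% of all tested genes), against 6 with it (4.86%). The TG group of 3 was not read with this ratio.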

How the results depend on the processing

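The 26 tested genes were refitted under 18 alternatives. Of 456 refitted values, 432 kept their direction and 24 reversed, 15 genes never reversed, and the lowest adjusted p of a member in limma was 0.123, so no member was called in any alternative.

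Over all genes, sample quality weights gave 49 higher and 36 lower calls, the papillomas of lower depth gave 1 higher call, and leaving out a papilloma gave 0 to 2 higher and 0 to 1 lower calls. The weights ranged from 0.272 for TG 3 to 3.11 for TG 2, and all genes then split into 1161 higher and 1248 lower at an unadjusted p under 0.05. The count of 6 members higher at an unadjusted p was 3 with a minimum of 2 FPKM, where only 14 members were tested (4.47% of all tested genes), 3 with quality weights (9.44%), 4 in the papillomas of lower depth, and 2 to 8 when a papilloma was left out. Without a filter on low values it was 5 of 36 members (4.99% of all genes). These were *Itga2*, *Itgb6*, *Itgb7*, *Itgb8* and *Lamc3*, while *Lama3*, *Lamb3* and *Itga5* were no longer under 0.05. 1 member (*Itga1*) was lower with quantile normalization, with quality weights and without TG 3, and 0 to 1 when a papilloma was left out. The causes were not tested.

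Reversed log2 differences with quality weights were -0.35 for *Itga3*, -0.20 for *Itga6*, -0.0391 for *Itgax*, -0.39 for *Itgb1*, -0.36 for *Itgb4*, -0.60 for *Lamb1* and -0.0835 for *Lamc1*. *Itga7* was -0.0156 with quantile normalization and -0.0050 in the papillomas of lower depth, and *Itgb4* was -0.0481 with upper-quartile scaling. Leaving out a papilloma gave ranges across 0 for *Itga11* (-0.0831 to 1.06), *Itga3* (-0.0842 to 0.59), *Itga6* (-0.0374 to 0.47), *Itga7* (-0.0314 to 0.47), *Itgav* (-0.0945 to 0.58), *Itgax* (-0.20 to 0.71), *Itgb1* (-0.13 to 0.39), *Itgb2* (-0.41 to 1.19), *Itgb4* (-0.16 to 0.20) and *Lamb1* (-0.30 to 0.66).

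Replicate numbers are shared between the groups by label only: deviations of same-numbered papillomas correlated at -0.186, 0.0431 and -0.146. With the replicate number as a block, 7 members were higher and 0 lower at an unadjusted p, against 4.11% and 1.38% of all tested genes, and 0 were called. Depth limited *Itgb8*, *Lamc3* and *Itgad*, with at most 24 implied reads in a papilloma.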
